A study of Pyrus pyrifolia with 6 samples.

Results

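The genes of sulfur assimilation and of the cysteine and methionine cycle were followed in the pulp of sand pear (Pyrus pyrifolia) with and without watercore, a disorder in which the flesh turns translucent and water-soaked. The genes were chosen by name alone: protein-coding genes whose annotated product name holds a fixed term for sulfate transporters, for enzymes of sulfate activation and reduction, for enzymes that make cysteine, methionine or S-adenosylmethionine, or for enzymes that salvage, degrade or repair methionine. Enzymes of the same pathways with other names, such as some of methylthioadenosine salvage, fall outside the terms. The rule found 98 of the 34996 protein-coding genes, in a table of 38969 genes in all. RNA sequencing was done on 3 libraries of healthy pulp and 3 of watercore pulp. All 6 libraries were labelled as fruit of the cultivar Qiurong from trees of 5 years, harvested at 120 D, with no treatment other than the state of the fruit. The methods of the paper give the cultivar name as Akibae, and the sources do not say whether this is another name of Qiurong. They also give another harvest day, tree age and RNA extraction, and speak of biological replicates, differences that the table does not settle. The labels gave fruit skin as the organ although the treatment field spoke of pulp, and they did not say whether libraries 1 to 3 of a group came from separate fruit, so that p-values measure the spread between these libraries.

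Plants take up sulfur as sulfate and carry it across membranes with the SULTR transporters. ATP sulfurylase activates sulfate to adenylylsulfate (APS), APS reductase makes sulfite from it, and sulfite reductase makes sulfide. Serine acetyltransferase provides O-acetylserine, which cysteine synthase joins with sulfide to give cysteine. Cystathionine gamma-synthase and beta-lyase pass the sulfur on to homocysteine, methionine synthase methylates homocysteine to methionine, and S-adenosylmethionine synthase makes the methyl donor from which plants also form ethylene and polyamines. In the methionine cycle, the methylthioadenosine left by ethylene and polyamine synthesis is recycled to methionine. In fruit, this cycle is best known as the supply line of ethylene during ripening.

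The libraries held between 14382020 and 15290688 counts each, of which the 98 genes took between 1.03% and 1.10%. Each healthy library detected 79 to 81 of the 98 genes, and each watercore library 87 to 89. Over all 38969 genes, healthy libraries detected 24757 to 25105 and watercore libraries 27133 to 27293. Of the 98 genes, 74 passed the filter on low counts and were tested, 17 held only 1 to 40 counts over all libraries and 7 held none. A gene was called higher or lower at a change of at least 1 on the log2 scale and an adjusted p under 0.05 in the quasi-likelihood test of edgeR, with the adjustment over all 21200 genes tested. Among the 74 tested genes, 15 were called higher in watercore pulp (20.3%) and 4 lower (5.41%), beside 17.6% higher and 7.54% lower over all genes tested. By adjusted p alone, 27 rose and 21 fell, beside 32.3% and 30.4% of all genes. The watercore libraries all lay above the healthy libraries for 27 genes (36.5%) and all below for 23 (31.1%), beside 35.5% and 33.8% of all genes. The median log2 change was 0.01 over the tested genes of the set and 0.00 over all genes tested. The set as a whole was therefore called about as often as other genes, in both directions, and what follows describes where in the pathway the changes lay. A gene with few or no counts in 1 group can pass the filter through the other group, so these counts are descriptions.

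As a check of the labelled tissue, 14 sorbitol dehydrogenase genes, which serve sugar use in pear pulp, summed to 2817 to 2888 FPKM in healthy and 1907 to 2041 FPKM in watercore libraries, while 4 of 12 tested were called higher and 1 lower. FPKM is the deposited level per length of gene and per library size, and levels below are on this scale. The 59 genes of skin and cuticle products, 27 of them at 0 in all libraries, summed to 44.8 to 47.6 FPKM in healthy and 42.7 to 46.4 FPKM in watercore libraries, with 3 called higher and 1 lower among 9 tested. The 27 genes for chlorophyll a-b binding proteins of green tissue, 3 of them at 0, summed to 59.3 to 66.3 and 65.6 to 66.6 FPKM, with 2 called higher and 3 lower among 11 tested. The 39 genes taken as seed products are named globulin, oleosin or late embryogenesis abundant protein, and 15 of them were at 0 in every library. They summed to 459 to 528 FPKM in healthy and 1152 to 1302 FPKM in watercore libraries, with 8 called higher and 1 lower among 13 tested. The sum was not split by product, so which of these products rose is not shown. The part of other tissue in the results below was not tested. In RNA from whole tissue, fewer cells of a type and less RNA per cell cannot be told apart.

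**Figure D1:**
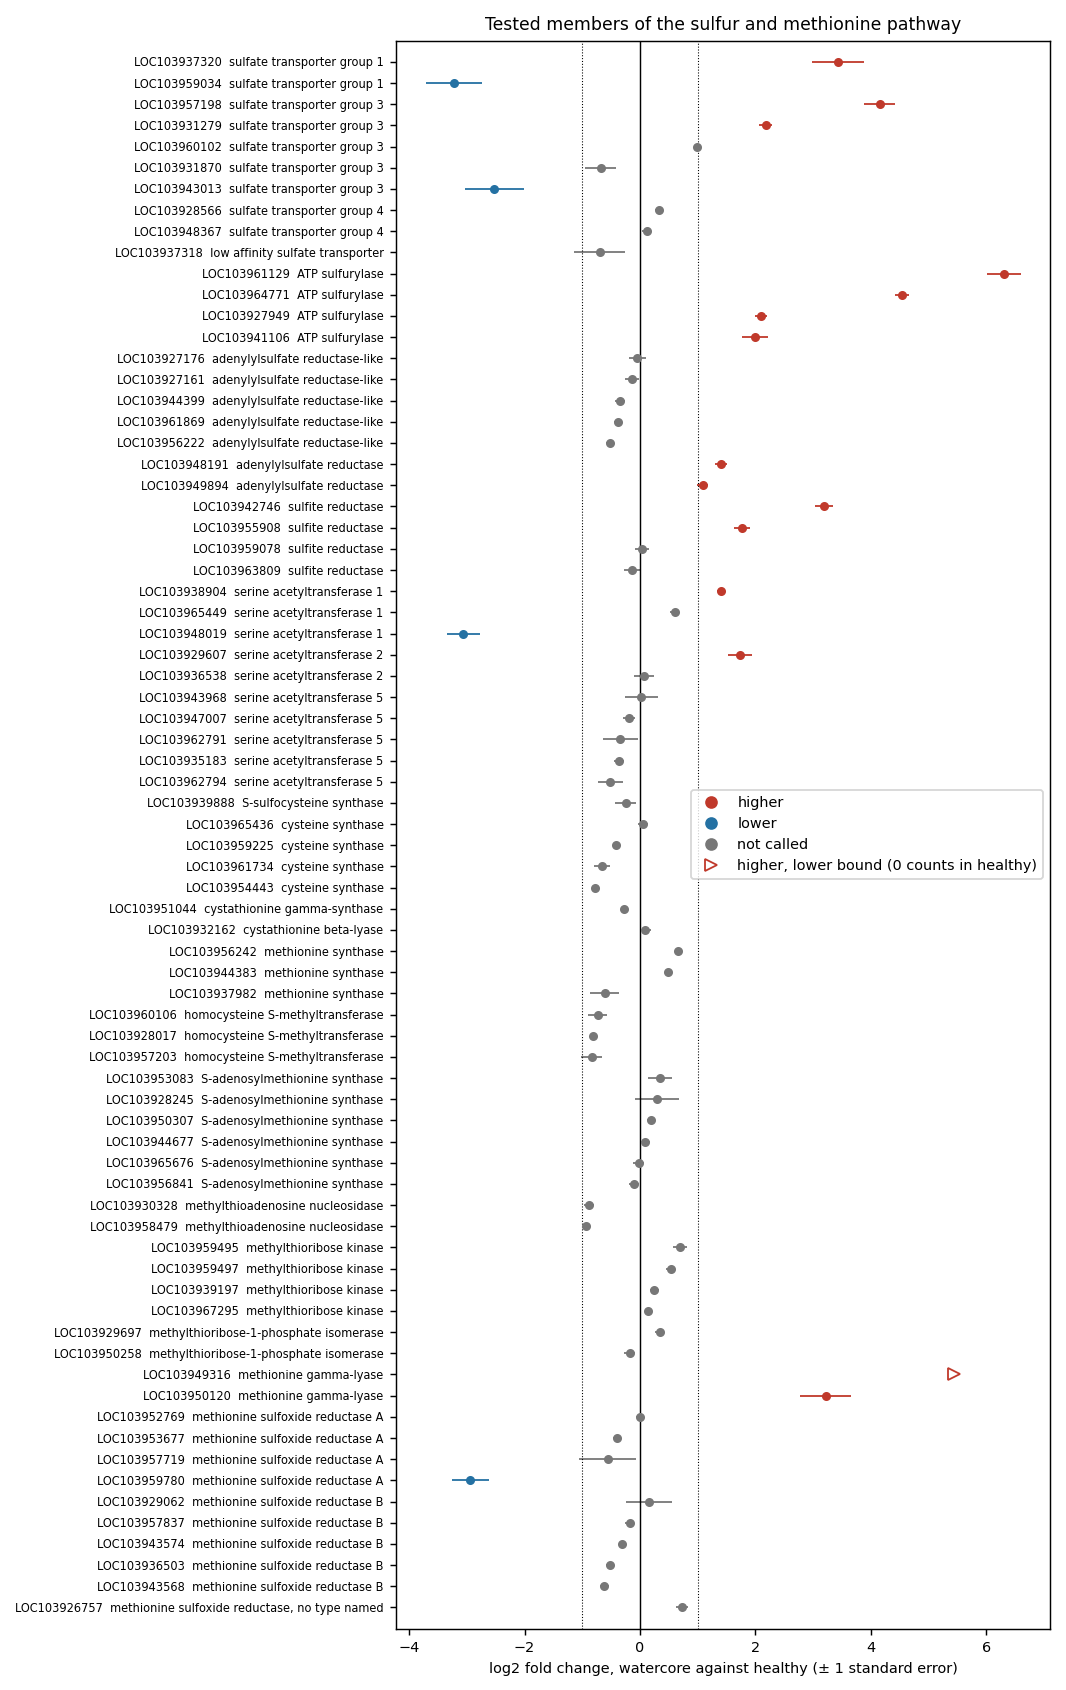
Log2 change (watercore over healthy) for each tested gene, with bars of 1 standard error and dotted lines at the fold threshold, in red for genes called higher, blue for lower and grey for not called, and an open triangle for LOC103949316, which had no count in healthy pulp and is drawn at its lower bound. The sulfate activation and reduction genes, 15 of them tested, hold 8 of the 15 called higher, beside 17.6% of all genes tested. None is called higher among 5 cysteine synthases (S-sulfocysteine synthase included), 6 S-adenosylmethionine synthases and 8 methylthioadenosine salvage genes. The same holds for the cystathionine enzymes, homocysteine methylation and methionine sulfoxide reductases. These numbers are too small to set none apart from that share.

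Genes of each enzyme of sulfate reduction rose in watercore pulp. In the chain from ATP sulfurylase through APS reductase to sulfite reductase, 8 of 10 tested genes were called higher in watercore pulp, beside 17.6% of all genes tested. None was called lower, beside 7.54%, nor lower at an unadjusted p under 0.05 in edgeR, DESeq2 or limma. LOC103961129, among the 8 called genes, passed the filter on low counts through watercore pulp alone. The chain was put together after the values were seen and leaves out the APS reductase-like genes described below. The levels of its 14 genes summed to 72.5 to 81.3 FPKM in healthy libraries and 246 to 279 FPKM in watercore libraries. The ratio of group means was 3.38, and 3.15 without LOC103964771, whose name is uncertain as given below.

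ATP sulfurylase, which activates sulfate, was called higher for all 4 tested genes of 5. The most abundant, ATP sulfurylase 2 (LOC103927949, scaffold NW_008988050.1, 617924 to 621563, plus strand), had 6.91, 7.28 and 5.77 FPKM in the healthy libraries and 28.8, 30.2 and 27.2 FPKM in the watercore libraries. All watercore libraries stood far above all healthy ones, with a log2 change of 2.10 ± 0.10 (SE, n = 3 per group, adjusted p = 6.1e-07), which is 4.28-fold. LOC103961129, named ATP sulfurylase 1 (NW_008988244.1, 127476 to 131719, minus strand), went from 0.168, 0.166 and 0.105 FPKM to 12.2, 14.9 and 9.09 FPKM. It was nearly silent in healthy pulp, with 13 counts over the 3 libraries against 1066 in watercore pulp, and its log2 change of 6.31 ± 0.29 (adjusted p = 5.8e-07) corresponds to 79.3-fold. It passed the filter on low counts through watercore pulp alone, so its call is a description.

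A further pair of genes is also named ATP sulfurylase 1. LOC103941106 (NW_008989267.1, 60043 to 63991, plus strand) had 1.14, 1.35 and 1.96 FPKM in healthy and 6.91, 5.79 and 5.21 FPKM in watercore libraries, 3.99-fold higher (adjusted p = 6.9e-05). LOC103964771 (NW_008988315.1, 350767 to 365938, plus strand) had 0.786, 0.930 and 0.879 FPKM against 20.4, 22.9 and 18.0 FPKM, a log2 change of 4.55 ± 0.12 (adjusted p = 5.9e-08). The name of LOC103964771 is uncertain, because the protein match deposited beside it is a calcium-transporting ATPase and its listed length of 4353 bases exceeds the 1639 to 2242 bases of the other ATP sulfurylases. LOC103940360 was not tested: it had 0 counts in healthy libraries and 15, 14 and 7 counts in watercore libraries, at least 11.9-fold higher when healthy pulp is set to a floor of 3 counts over the group. Summed over the 5 genes, ATP sulfurylase stood at 8.71 to 9.73 FPKM in healthy and 59.8 to 74.5 FPKM in watercore libraries, a ratio of 7.41, and of 5.71 without LOC103964771. The make-up of the sum also differed between the groups. LOC103927949 carried 66.2% to 76.8% of it in healthy libraries and 40.6% to 45.5% in watercore libraries.

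APS reductase, the enzyme usually seen as the main control point of the pathway in Arabidopsis, was called higher for both tested genes of 5, both named APS reductase 3. LOC103949894 (NW_008988039.1, 830289 to 832928, minus strand) had 16.8, 14.8 and 14.7 FPKM in healthy and 36.3, 32.2 and 30.7 FPKM in watercore libraries, a log2 change of 1.09 ± 0.09 (adjusted p = 1.2e-05). With offsets for gene length its change was 0.95, under the fold threshold. LOC103948191 (NW_008988092.1, 702002 to 705469, plus strand) had 9.08, 11.7 and 9.95 FPKM against 26.2, 30.0 and 25.8 FPKM, a log2 change of 1.40 ± 0.11 (adjusted p = 8.9e-06). The groups did not overlap for either gene. Of the remaining 3 genes, 2 had no count and LOC103951376 had 8 counts over all libraries. The sum of APS reductase went from 24.7 to 26.6 FPKM in healthy libraries to 56.5 to 62.6 FPKM in watercore libraries, a ratio of 2.35.

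The genes named APS reductase-like 4 or 5 went the other way. Their proteins carry a thioredoxin fold but, as known from Arabidopsis, are not counted among the enzymes of sulfate reduction. None of the 5 tested was called, and 3 fell by adjusted p: LOC103956222 by 0.52 on the log2 scale (adjusted p = 1.3e-04), LOC103961869 by 0.38 (adjusted p = 5.8e-04) and LOC103944399 by 0.35 (adjusted p = 0.00449). LOC103956222 had 34.0, 33.5 and 33.9 FPKM in healthy and 23.6, 24.0 and 23.9 FPKM in watercore libraries, with hardly any spread within a group, though it overlaps 5 other annotated genes. Their sum was 107 to 111 FPKM in healthy and 82.6 to 86.1 FPKM in watercore libraries.

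Sulfite reductase, which completes the reduction to sulfide, had 4 tested genes, of which 2 were called higher. LOC103955908 (NW_008988170.1, 567174 to 570932, minus strand) had 17.7, 22.0 and 27.6 FPKM in healthy and 78.3, 78.8 and 73.3 FPKM in watercore libraries, a log2 change of 1.77 (SE 0.14, adjusted p = 8.1e-06). LOC103942746 (NW_008989712.1, 13698 to 14960, minus strand), a short model of 921 bases, had 4.81, 5.69 and 3.47 FPKM against 42.7, 46.0 and 40.6 FPKM, a log2 change of 3.19 ± 0.16 (adjusted p = 8.2e-07). The other tested genes overlapped between the groups, with log2 changes of 0.04 for LOC103959078 (adjusted p = 0.816) and -0.14 for LOC103963809 (adjusted p = 0.388). The sum over the 4 genes was 37.6 to 47.2 FPKM in healthy and 130 to 142 FPKM in watercore libraries, a ratio of 3.14. Sulfite oxidase, which turns surplus sulfite back to sulfate, was hardly seen: 1 of its 2 genes had 1 count in healthy and 9 in watercore pulp, the other none.

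**Figure D2:**
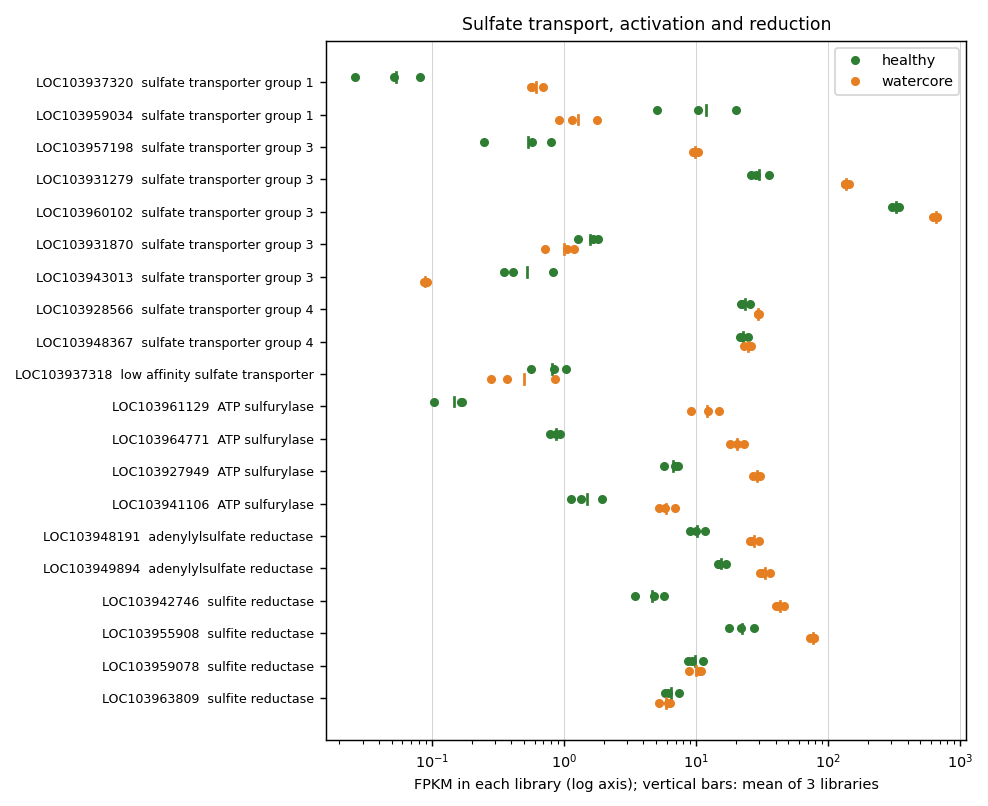
Level in FPKM, on a log axis, of the tested genes of sulfate transport, ATP sulfurylase, APS reductase (adenylylsulfate reductase) and sulfite reductase, with a green point for each healthy library, an orange point for each watercore library and a vertical bar at each group mean. For the called genes of the reduction chain the watercore points lie above the healthy points without overlap, while among the transporters LOC103959034 and LOC103943013 lie below.

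Calls among the sulfate transporters went in both directions. Of 18 genes, 10 were tested and 3 had no count. Among those tested, 3 were called higher and 2 lower, beside 17.6% and 7.54% of all genes tested. Their levels summed to 401 to 433 FPKM in healthy and 823 to 881 FPKM in watercore libraries, a ratio of 2.06. The most abundant gene, LOC103960102 (NW_008988225.1, 414088 to 421236, plus strand), is named sulfate transporter 3.1-like, of the group placed in the plastid envelope in Arabidopsis, and carried 89.4% to 92.4% of the level of group 3 in healthy and 81.1% to 82.1% in watercore libraries. It had 305, 343 and 325 FPKM in healthy and 624, 670 and 661 FPKM in watercore libraries. Its change of 0.99 ± 0.06 (adjusted p = 2.5e-06) lay just under the fold threshold, and it was called in 8 of 15 alternative analyses. Its groups did not overlap.

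Other group 3 genes changed more from a lower level. Sulfate transporter 3.4 (LOC103931279, NW_008988543.1, 6681 to 12271, minus strand) had 28.4, 26.2 and 35.7 FPKM in healthy and 134, 144 and 133 FPKM in watercore libraries, a log2 change of 2.18 ± 0.11 (adjusted p = 8.4e-07). In rice and Arabidopsis the transporter of this name takes part in the distribution of phosphorus. A further 3.1-like gene, LOC103957198 (NW_008988188.1, 56457 to 62880, plus strand), had 0.794, 0.576 and 0.247 FPKM against 10.3, 9.42 and 9.68 FPKM, a log2 change of 4.16 ± 0.27 (adjusted p = 3.2e-06) or 17.8-fold. Not every healthy library reached 10 counts of this gene, which passed the filter through watercore pulp, so its call is a description. In the opposite direction, sulfate transporter 3.3 (LOC103943013, NW_008988058.1, 9208 to 14272, minus strand) had 0.413, 0.350 and 0.827 FPKM in healthy and 0.0867, 0.0917 and 0.0903 FPKM in watercore libraries. It fell by 2.53 on the log2 scale (SE 0.51, adjusted p = 0.00229) from 53 counts to 9, and in limma on log2(FPKM + 1) its change was -0.48 and not called. It passed the filter on low counts through healthy pulp alone, so its call is a description.

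Group 1 holds the high-affinity transporters that in Arabidopsis take up sulfate at the root. Sulfate transporter 1.2 (LOC103959034, NW_008988209.1, 52589 to 58366, plus strand) had 20.2, 10.4 and 5.11 FPKM in healthy and 0.915, 1.15 and 1.79 FPKM in watercore libraries. Its healthy libraries spread the most among the tested genes of the set, with a coefficient of variation of 64.2%, yet the lowest of them was above the highest watercore library. It fell by 3.23 on the log2 scale (SE 0.48, adjusted p = 4.0e-04), and without healthy library 1 by 2.60. The 1.2-like gene LOC103937320 (NW_008988882.1, 167936 to 172385, minus strand) went from 0.0264, 0.0522 and 0.0820 FPKM to 0.697, 0.573 and 0.565 FPKM, with 6 counts against 69 and a log2 change of 3.43 ± 0.45 (adjusted p = 1.9e-04). On the scale of log2(FPKM + 1), in limma, its change was 0.61. It passed the filter on low counts through watercore pulp alone, so its call is a description. The group 4 transporters, which in Arabidopsis release sulfate from the vacuole, were both under the fold threshold, at 0.33 for LOC103928566 (adjusted p = 0.00329) and 0.12 for LOC103948367 (adjusted p = 0.215). Also not called were LOC103931870, a 3.3 gene, with -0.68 (adjusted p = 0.0537) and the low affinity transporter LOC103937318 with -0.70 (adjusted p = 0.199). Without watercore library 3 the latter was called lower.

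Serine acetyltransferase, which supplies the carbon skeleton of cysteine, held called genes in both directions. Of 10 tested genes out of 11, 2 were called higher and 1 lower. These numbers are near the 17.6% and 7.54% of all genes tested. LOC103938904 (NW_008989015.1, 110608 to 112151, minus strand), of type 1, had 13.8, 14.3 and 14.7 FPKM in healthy and 39.7, 38.3 and 35.9 FPKM in watercore libraries, a log2 change of 1.40 ± 0.07 (adjusted p = 7.9e-07). LOC103948019 (NW_008988091.1, 310442 to 311898, plus strand), also of type 1, went from 13.9, 13.6 and 28.2 FPKM, down to 2.15, 2.34 and 2.24 FPKM. It fell by 3.06 on the log2 scale (SE 0.29, adjusted p = 2.7e-05), and its change lay between -3.24 and -2.63 when 1 library was left out. The type 2 gene LOC103929607 (NW_008988488.1, 295074 to 298350, plus strand) had 2.20, 2.48 and 1.46 FPKM against 7.28, 5.97 and 7.31 FPKM, a log2 change of 1.73 ± 0.21 (adjusted p = 1.1e-04).

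The most abundant serine acetyltransferase, LOC103965449 (NW_008988330.1, 473682 to 475311, plus strand), had 34.2, 31.4 and 30.9 FPKM in healthy and 50.3, 53.5 and 43.8 FPKM in watercore libraries. Its change of 0.60 ± 0.08 (adjusted p = 2.1e-04) was under the fold threshold, it came to 0.16 with offsets for gene length, and the protein match deposited for it is a retroelement polyprotein. For the 3 type 1 genes the listed gene length exceeds the listed span on the scaffold. This length enters their FPKM and the change with offsets for gene length, but not the main test on counts. Whether their counts come from the listed span alone was not checked. None of the 5 genes of type 5 was called, and their log2 changes ran from -0.51 for LOC103962794 (adjusted p = 0.0669) to 0.02 for LOC103943968. Of the type 5 genes, LOC103935183 fell by 0.36 (adjusted p = 0.0082).

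Cysteine synthase, the next enzyme, did not rise in watercore pulp. None of its 4 tested genes was called, and 3 fell by adjusted p. LOC103954443 (NW_008988152.1, 643722 to 647348, plus strand) had 125, 118 and 115 FPKM in healthy and 71.9, 70.0 and 68.2 FPKM in watercore libraries. It fell by 0.78 on the log2 scale (SE 0.05, adjusted p = 4.8e-06), and with offsets for gene length it was called lower, just past the fold threshold. LOC103959225 fell by 0.41 (adjusted p = 2.3e-04) and LOC103961734 by 0.66 (adjusted p = 0.00223), while LOC103965436 was at 0.06 (adjusted p = 0.598). The 6 cysteine synthase genes summed to 221 to 227 FPKM in healthy and 149 to 156 FPKM in watercore libraries. The tested S-sulfocysteine synthase, LOC103939888, was at -0.25 (adjusted p = 0.252).

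The enzymes that carry sulfur from cysteine to homocysteine changed little. Cystathionine gamma-synthase (LOC103951044, NW_008988117.1, 820391 to 824194, minus strand), the entry to methionine synthesis, had 132, 126 and 124 FPKM in healthy and 108, 104 and 104 FPKM in watercore libraries. The groups did not overlap, and it fell by 0.28 on the log2 scale (SE 0.05, adjusted p = 0.00128). Cystathionine beta-lyase (LOC103932162) was at 0.10 (adjusted p = 0.427).

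**Figure D3:**
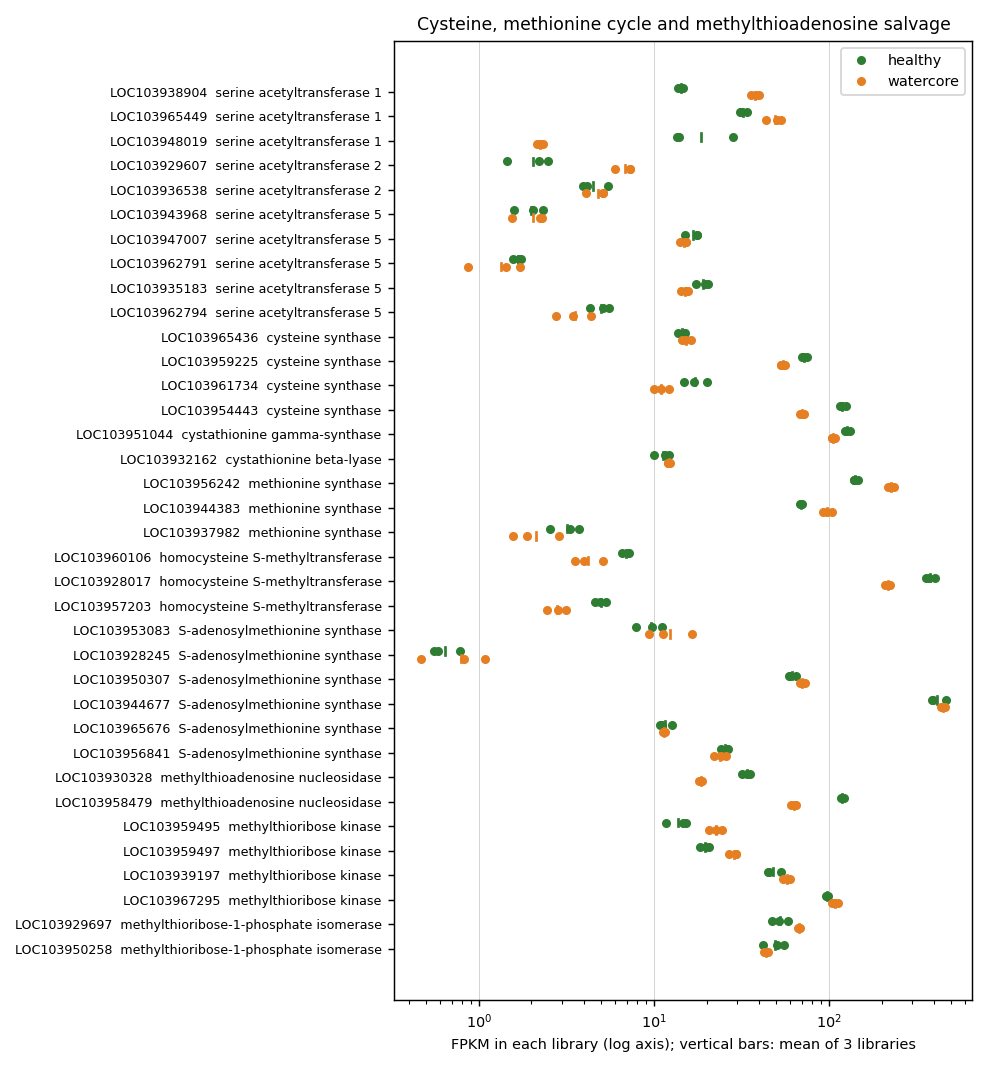
Level in FPKM, on a log axis, of the tested genes of serine acetyltransferase, cysteine synthase, the cystathionine enzymes, methionine synthase, homocysteine S-methyltransferase, S-adenosylmethionine synthase and methylthioadenosine salvage, with green points for healthy libraries, orange points for watercore libraries and bars at the means. The serine acetyltransferase LOC103938904 rises and LOC103948019 falls, and the most abundant cysteine synthase and homocysteine S-methyltransferase lie lower in all watercore libraries.

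At the methylation of homocysteine, the 2 enzyme types moved apart. Methionine synthase, which uses folate as its methyl donor, rose by adjusted p for 2 of 3 tested genes, both under the fold threshold. LOC103956242 had 139, 138 and 146 FPKM in healthy and 222, 236 and 218 FPKM in watercore libraries, a log2 change of 0.66 ± 0.06 (adjusted p = 1.3e-05). LOC103944383 had 70.5, 68.3 and 68.9 FPKM against 97.6, 104 and 92.1 FPKM, a log2 change of 0.49 ± 0.06 (adjusted p = 1.0e-04). LOC103937982, the least abundant, was at -0.61 (adjusted p = 0.0557). The class summed to 210 to 218 FPKM in healthy and 312 to 342 FPKM in watercore libraries.

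Homocysteine S-methyltransferase, which takes its methyl group from S-methylmethionine or S-adenosylmethionine, fell by adjusted p for all 3 tested genes of 4, none past the fold threshold. Homocysteine S-methyltransferase 3 (LOC103928017, NW_008988440.1, 129665 to 133774, plus strand) had 375, 404 and 357 FPKM in healthy and 224, 208 and 220 FPKM in watercore libraries, and fell by 0.81 on the log2 scale (SE 0.06, adjusted p = 8.0e-06). LOC103960106 fell by 0.73 (adjusted p = 0.00451) and LOC103957203 by 0.84 (adjusted p = 0.00338). The sum of the 4 genes went from 370 to 416 FPKM in healthy libraries to 216 to 233 FPKM in watercore libraries. In healthy pulp this sum exceeded that of methionine synthase in every library, and in watercore pulp it was below it in every library.

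Of the 4 homocysteine S-methyltransferase genes, 3 share a scaffold with a group 3 sulfate transporter a few genes away. LOC103960106 is 33346 bases from LOC103960102 with 3 genes between them, LOC103957203 is 32288 bases from LOC103957198 with 4 genes between them, and LOC103928017 is 73195 bases from the transporter LOC103928011 with 5 genes between them. In the first of these pairs the methyltransferase fell by 0.73 on the log2 scale while the transporter was at 0.99, and in the next it fell by 0.84 while the transporter rose by 4.16. In the last pair the transporter LOC103928011 was not tested, with 0 counts in healthy and 7 in watercore libraries. The transporters LOC103937318 and LOC103937320, 19668 bases apart, were at -0.70 and 3.43, the former not past the test.

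S-adenosylmethionine synthase was among the most abundant classes and held no called gene among 6 tested. LOC103944677 had 394, 387 and 467 FPKM in healthy and 460, 439 and 443 FPKM in watercore libraries, which overlap, with a log2 change of 0.09 ± 0.08 (adjusted p = 0.324). LOC103950307 rose by 0.18 (adjusted p = 0.0231). The class summed to 491 to 581 FPKM in healthy and 557 to 579 FPKM in watercore libraries.

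The salvage of methylthioadenosine was divided between its enzymes. Methylthioadenosine nucleosidase, which opens the salvage by removing adenine, fell for both tested genes of the set to just short of the fold threshold. LOC103958479 had 119, 117 and 122 FPKM in healthy and 64.6, 61.0 and 63.8 FPKM in watercore libraries, and fell by 0.93 on the log2 scale (SE 0.05, adjusted p = 1.9e-06). LOC103930328 had 35.6, 33.9 and 32 FPKM against 18.7, 18.9 and 18.0 FPKM, and fell by 0.88 (SE 0.08, adjusted p = 2.2e-05). Methylthioribose kinase, the next step, rose slightly by adjusted p for all 4 genes, with every watercore library above every healthy one. Over all genes tested, 32.3% rose by adjusted p and 35.5% had every watercore library above. The most abundant kinase gene, LOC103967295, had 96.3, 97.7 and 98.6 FPKM against 107, 113 and 104 FPKM, a log2 change of 0.14 ± 0.05 (adjusted p = 0.0481). The others were at 0.25 for LOC103939197 (adjusted p = 0.0221), 0.54 for LOC103959497 (adjusted p = 3.1e-04) and 0.69 for LOC103959495 (adjusted p = 7.8e-04). Of the isomerases, LOC103929697 rose by 0.34 (adjusted p = 0.00461) and LOC103950258 was at -0.18 (adjusted p = 0.137). The nucleosidases summed to 151 to 155 FPKM in healthy and 79.9 to 83.3 FPKM in watercore libraries, and the kinases to 176 to 182 and 208 to 221 FPKM.

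Methionine gamma-lyase, which breaks methionine down to methanethiol, was called higher for both of its genes, at low levels. LOC103949316 (NW_008988101.1, 972452 to 975444, plus strand) had 0 counts in each healthy library and 42, 38 and 52 counts in the watercore libraries, at least 43.7-fold higher over a floor of 3 counts in the healthy group. It passed the filter on low counts through the watercore group alone, so its call is a description. LOC103950120 (NW_008988109.1, 662646 to 665854, minus strand) had 3 counts in each healthy library and 43, 21 and 24 counts in the watercore libraries, a log2 change of 3.22 ± 0.44 (adjusted p = 2.3e-04). This gene too passed the filter through the watercore group alone, so its call is likewise a description. Together the genes reached 2.43 to 3.29 FPKM in watercore pulp. On the scale of log2(FPKM + 1) with limma, the change of LOC103950120 was 0.92 and not called.

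Methionine sulfoxide reductases repair oxidised methionine in proteins. Of 10 tested genes 1 was called lower, and by adjusted p 1 rose and 5 fell, the called gene among them. Over all genes tested, 7.54% were called lower, and by adjusted p 32.3% rose and 30.4% fell. LOC103959780, of type A1 (NW_008988221.1, 80208 to 82898, minus strand), had 4.71, 4.47 and 7.65 FPKM in healthy and 0.622, 0.658 and 0.907 FPKM in watercore libraries. It fell by 2.94 on the log2 scale (SE 0.32, adjusted p = 6.1e-05), 7.68-fold from healthy to watercore pulp. The most abundant gene of the whole set was LOC103943574, of type B5 (NW_008988060.1, 278395 to 280738, minus strand), at 5984, 5796 and 5567 FPKM in healthy and 4913, 4635 and 4594 FPKM in watercore libraries. It ranked 7 or 8 among all genes in every library and made up 55.6% to 64.8% of the summed level of the 98 genes. It fell by 0.31 (SE 0.06, adjusted p = 0.00124), with no overlap between the groups. LOC103953677 fell by 0.40 (adjusted p = 9.2e-04), LOC103936503 by 0.51 (adjusted p = 2.6e-04) and LOC103943568 by 0.62 (adjusted p = 2.1e-04). The exception was LOC103926757, with 15.8, 16.4 and 14.6 FPKM against 25.2, 28.8 and 24.0 FPKM and a log2 change of 0.72 ± 0.11 (adjusted p = 3.5e-04).

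**Figure D4:**
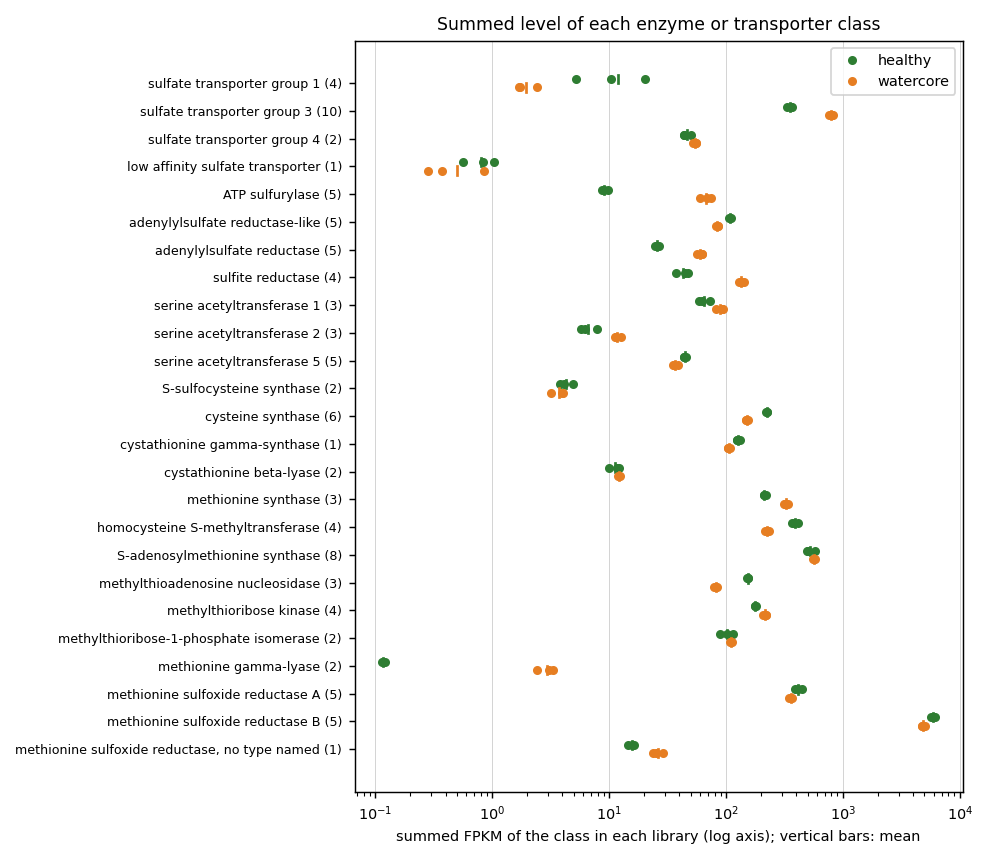
Summed FPKM of each enzyme or transporter class with at least 1 tested gene in each library, on a log axis, with the number of genes in parentheses, green points for healthy libraries, orange points for watercore libraries and bars at the means. The sums of ATP sulfurylase, at 8.71 to 9.73 FPKM in healthy and 59.8 to 74.5 FPKM in watercore libraries, APS reductase and sulfite reductase lie higher in all watercore libraries, while those of cysteine synthase, homocysteine S-methyltransferase and methylthioadenosine nucleosidase lie lower in all of them.

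Libraries of a group lay close together for most genes. The median coefficient of variation of FPKM over the tested genes was 8.91% in healthy and 6.75% in watercore libraries. The mean levels of the tested genes ran from 0.310 to 5248 FPKM, with a median of 17.9 FPKM, 9 genes over 100 and 27 under 10 FPKM. Of the 19 called genes, 13 had a mean level below this median. The classes without a called gene held 46 tested genes, of which 28 had an unadjusted p under 0.05 in edgeR and 27 in DESeq2. Over all genes tested, 32.3% rose and 30.4% fell by adjusted p in edgeR. DESeq2 called none of the 46, but they were picked for lacking an edgeR call on the same counts, so this adds little.

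Related genes outside the rule were described from lists by product name, 97 genes in all, of which 63 were tested, 20 called higher and 2 lower, beside the same 17.6% and 7.54% of all genes. The list of sulfur deficiency response held 4 genes named after SDI1 or SDI2, of which SDI1 is a marker of sulfur starvation in Arabidopsis, and 3 named ETHYLENE INSENSITIVE 3-like 3, in Arabidopsis a regulator of that response. All 7 lay above every healthy library in every watercore library, beside 35.5% of all genes tested, and 6 rose by adjusted p, beside 32.3%. The 3 called higher are SDI1 genes, and none of the ETHYLENE INSENSITIVE 3-like 3 genes was called by edgeR or DESeq2, though all 3 had an unadjusted p under 0.05. LOC103928677 had 14.1, 12 and 11.9 FPKM in healthy and 65.2, 60.3 and 61.2 FPKM in watercore libraries, a log2 change of 2.29 ± 0.09 (adjusted p = 2.8e-07). LOC103960628 was at 2.35 ± 0.26 (adjusted p = 7.1e-05). Adenylyl-sulfate kinase, which draws APS away from reduction towards sulfated compounds, had 5 tested genes and 1 called lower, LOC103952645. That gene had 29.5, 27.5 and 27.6 FPKM against 15.5, 13.9 and 12.8 FPKM and fell by 1.01 (adjusted p = 1.4e-05), a call that was lost in 7 of 15 alternatives.

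Among 10 tested genes of glutathione synthesis and cysteine desulfuration none was called by edgeR, DESeq2 or limma, while by adjusted p 2 rose and 5 fell in edgeR and 7 had an unadjusted p under 0.05. Glutamate-cysteine ligase (LOC103941961), which commits cysteine to glutathione, had 78.3, 85.6 and 71.6 FPKM in healthy and 106, 106 and 114 FPKM in watercore libraries, a log2 change of 0.46 ± 0.07 (adjusted p = 5.2e-04). Of 12 genes from aspartate to homoserine and threonine, which provide the carbon of methionine, 3 were called higher and none lower. By adjusted p, 4 rose and 6 fell. Beside both lists, 17.6% of all genes tested were called higher and 7.54% lower, and by adjusted p 32.3% rose and 30.4% fell. Aspartokinase 2 (LOC103966587) had 1.97, 2.40 and 2.37 FPKM against 8.31, 7.63 and 8.69 FPKM, a log2 change of 1.86 ± 0.13 (adjusted p = 5.0e-06). The most abundant gene of that list, LOC103956555, was at 0.52 (adjusted p = 1.0e-04).

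Of the uses of S-adenosylmethionine, ethylene synthesis had 20 tested genes of 42 by product name. Among them 11 were called higher and 1 lower, beside 17.6% and 7.54% of all genes tested. Of the 20, 11 are named only as homologs of ACC oxidase, with 4 called higher. The 9 named ACC oxidase or ACC synthase had 7 called higher and 1 lower. The protein matches of LOC103958907 and LOC103956316, both called higher, are of other families, a diacylglycerol lipase and an exocyst subunit. The most abundant gene, the ACC oxidase LOC103948231, had 5526, 6770 and 7019 FPKM in healthy and 11127, 10885 and 10399 FPKM in watercore libraries, a log2 change of 0.73 ± 0.09 (adjusted p = 1.1e-04). LOC103943975, another ACC oxidase, had 1 count in the healthy libraries together and 6130 in the watercore libraries, a ratio of 6091 with an exact 95% counting interval of 1093 to 240633 that covers counting error only. The polyamine and nicotianamine genes had 7 tested of 14 and 2 called higher. S-adenosylmethionine decarboxylase (LOC103947322), which commits the molecule to polyamines, had 135, 147 and 136 FPKM against 479, 466 and 473 FPKM, a log2 change of 1.75 ± 0.06 (adjusted p = 1.1e-07). Methionine S-methyltransferase (LOC103946414), which makes the S-methylmethionine used by homocysteine S-methyltransferase, had 1.95, 1.29 and 1.41 FPKM against 2.69, 3.69 and 3.69 FPKM. Its log2 change was 1.10 ± 0.20 (adjusted p = 0.00132), and 0.66 with offsets for gene length. In the same list, LOC103947667 was at -0.07 (adjusted p = 0.387).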

How the data were processed

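Each group, healthy or watercore pulp, had 3 RNA-seq libraries. The authors built libraries with an NEB Next Ultra kit and mapped reads with HISAT2. Their methods name a Pyrus betulifolia genome, while the deposited table lists LOC identifiers on scaffolds. The sources used here name neither the build of those scaffolds nor the counting tool. The authors deposited a raw read count per gene and library, and FPKM values, which are those counts scaled for gene length and library size. The gene lengths are also deposited. Columns of the authors' own DESeq2 comparison (fold change and p-values) were not used. How reads were split between near-identical genes or gene copies, or between overlapping genes, is not known, so values of single family members are uncertain. Among the 98 genes, 9 overlap another gene, none of them called.

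Counts were tested with edgeR 4.0.16 under R 4.3.3 (TMM factors, filterByExpr, glmQLFit and glmQLFTest, Benjamini-Hochberg over 21200 genes) with the 6 libraries in unpaired groups, and calls needed an adjusted p under 0.05 with a log2 change of 1 or more in either direction. SE is the log2 change divided by the root of the F value. Levels are the deposited FPKM. The depth of 14382020 to 15290688 counts per library and a biological coefficient of variation of 0.143 set the precision. For genes without counts in a group, folds used a floor of 3 counts for that group as a whole. Genes were taken by the product name before the first separator, and enzyme classes were drawn from the product names after the data were seen. The protein match deposited beside a gene fits the rule for 94 of the 98 genes, differs for 2 and is lacking for 2. The genes named were every called gene, the most abundant tested gene of each role and, in each related list, the called gene with the largest change and the most abundant tested gene, and others were named after their values were seen. The members, lists and rules were chosen with earlier results of these data known.

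Alternatives were DESeq2 1.42.0, RLE factors, no filter, a minimum of 10 counts in every library, a replicate block, gene length offsets, limma 3.58.1 on log2(FPKM + 1), alone or for genes with a mean FPKM of at least 1, and on log2(FPKM + 0.1), no minimum fold, the rule applied to the whole description, and each library left out. On simulated counts with 200 genes changed by 2 on the log2 scale, edgeR recovered 95.5% and made 14 false calls among 20765 genes tested. The changed genes were drawn without those of few counts and went up and down in equal numbers. These figures therefore do not cover genes with few counts, or data with as many changes as here. Python 3.11.15, pandas 2.3.3, numpy 2.4.6 and matplotlib 3.10.9 were used.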

Additional observations from a re-analysis of the deposited data

How the results depend on the processing

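Over the alternatives that kept the minimum fold, 11 to 17 genes of the set were called higher and 3 to 5 lower. The search of the whole description adds 4 genes outside the set, for 19 higher. Leaving out 1 library gave 15 to 17 higher and 4 to 5 lower. With no minimum fold, 27 were higher and 21 lower. Of the 19 called genes, 15 were called in every alternative that tested them. The exceptions were LOC103950120, LOC103937320 and LOC103943013 in limma on log2(FPKM + 1), and LOC103949894 with gene length offsets. At least 10 counts in every library left 6 of the 19 untested: LOC103937320, LOC103943013, LOC103949316, LOC103950120, LOC103957198 and LOC103961129. These passed the main filter through 1 group, so their calls are descriptions. S-adenosylmethionine synthase LOC103944677 turned to -0.0253 with gene length offsets, and the cause was not tested. Related genes called lower, 2 in the main analysis, numbered 1 with RLE factors, 0 with at least 10 counts in every library, 6 with gene length offsets, 0 in both limma fits on log2(FPKM + 1), 1 in limma on log2(FPKM + 0.1) and 18 with no minimum fold. Leaving out 1 library gave 1 without watercore library 3 and 4 without watercore library 1, and 17 to 20 called higher. Where 0 were called, 17 related genes were lower at an unadjusted p under 0.05 in edgeR with at least 10 counts, and 18 in limma without a minimum FPKM. The replicate block called 15 genes of the set higher and 4 lower, the same 19 genes. Same-numbered libraries did not deviate together (correlations of 0.0369, 0.0027 and -0.0026), so the numbers were not taken as pairs. The median log2 change of all genes was 0.16 in DESeq2 and -0.19 with gene length offsets, against 0.00. Genes with few counts carry the widest errors, and for most of the 24 untested genes changes were not detectable at this depth. Of these, LOC103940360 was called higher in DESeq2, with no filter and in 4 of the runs without 1 library, and LOC103947531 with no filter.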

Other observations

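A search of the whole annotation text, which adds the name of the best protein match, found 29 more genes beyond the 98, of which 18 were tested, 4 called higher and none lower by edgeR, with 6 lower at an unadjusted p under 0.05 and none called lower by DESeq2 or limma. Of these, 2 are named putative calcium-transporting ATPase 13 while their match is ATP sulfurylase 1: LOC103953619 had 2, 3 and 0 counts in healthy and 234, 168 and 162 counts in watercore libraries, a log2 change of 6.70, and LOC103936274 had 0, 1 and 0 counts against 36, 19 and 21 counts. LOC103964771, of the 98 genes, is named ATP sulfurylase 1 while its match is calcium-transporting ATPase 12. The other called genes, LOC103943865 and LOC103957459, both have a methylthioadenosine nucleosidase as their match, unlike the nucleosidases of the set in direction. LOC103943865, named a bark storage protein, had 0 counts in the healthy libraries and 20, 11 and 11 in the watercore libraries. LOC103957459, named uncharacterized, rose by 1.23 on the log2 scale (adjusted p = 2.1e-04).

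The abundant genes of the cycle that only this search reached changed little. Adenosylhomocysteinase, which recovers homocysteine after methyl transfer, fell by 0.28 on the log2 scale for LOC103962559 (adjusted p = 0.00214), from 540, 554 and 556 FPKM in healthy to 465, 477 and 430 FPKM in watercore libraries, and by 0.31 for LOC103941448 (adjusted p = 7.6e-04). The acireductone dioxygenase LOC103935869, of methylthioadenosine salvage, had 543, 668 and 595 FPKM against 798, 750 and 775 FPKM and rose by 0.35 (adjusted p = 0.00329).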
